A study of Mus musculus with 11 samples.

Results

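The genes described here are 42 genes of DNA replication, listed by name, out of 48709 mouse genes in the count table of a bulk RNA-seq series on the aortic arch. The list covers the loading of the replicative helicase at origins, its activation, the polymerases with their clamp and clamp loader, strand joining, nucleotide supply, chromatin assembly and the regulators of entry into S phase. All 42 were found in the files under those names and all 42 passed the filter on low counts, so each member was tested. The libraries were made from mice of 1 age, postnatal day 11, with no treatment. WT 1 to 5 came from wild-type mice (Tgfbr2 +/+) and Het 1 to 6 from heterozygous littermates (Tgfbr2 G357W/+), which model Loeys-Dietz syndrome type II, an inherited aortic aneurysm disorder with a mutated type II receptor for TGF-beta. The labelled cell type is VSMC and EC, the usual short forms for smooth muscle cells of the vessel wall and for endothelium. As many mice as libraries are counted in the series, and their litters are not given.

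DNA is copied once per cell cycle. In G1, the origin recognition complex with CDC6 and CDT1 loads the ring of MCM2 to MCM7 onto DNA, and in S phase CDC45 and the GINS complex turn that ring into a moving helicase behind which the polymerases work. Most of these genes are transcribed in bursts that follow the cell cycle, under the E2F transcription factors that the retinoblastoma protein holds back in resting cells, so their transcripts are scarce in a tissue of mostly resting cells. In the growing aorta of a young mouse, cells of the wall still divide.

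The promoters are shown first, because many replication genes are known to be switched on through E2F sequences near their start. RefSeq windows (GRCm38.p6), each from 250 bases before to 50 bases after a gene's start, were found for 34 of the 42 members. They were searched on both strands for the E2F sequences TTTCCCGC, TTTCGCGC, TTTGCCGC and TTTGGCGC, where matches may overlap, and for CCAAT. An E2F match stood in the window of 15 of the 34 members (44.1%), against 704 of all 27025 genes of the table (2.61%) and 479 of the 10531 tested genes in it (4.55%). CCAAT was found for 20 of the 34 members (58.8%), against 41.1% of all genes. The 250 bases before the start of 5 members are printed here. These are the members with the smallest p among the licensing, strand joining and nucleotide supply genes (Mcm5, Lig1 and Rrm2), together with Mcm6, with the most E2F matches before its start, and Uhrf1, with a match at its second listed start, both chosen after the matches were seen. Capitals mark E2F matches and CCAAT boxes on either strand. The windows were chr8:75109259-75109508 (plus strand) for Mcm5, chr1:128359706-128359955 (minus strand) for Mcm6, chr17:56304063-56304312 (plus strand) for Uhrf1, chr7:13276925-13277174 (plus strand) for Lig1 and chr12:24708004-24708253 (plus strand) for Rrm2.
Mcm5: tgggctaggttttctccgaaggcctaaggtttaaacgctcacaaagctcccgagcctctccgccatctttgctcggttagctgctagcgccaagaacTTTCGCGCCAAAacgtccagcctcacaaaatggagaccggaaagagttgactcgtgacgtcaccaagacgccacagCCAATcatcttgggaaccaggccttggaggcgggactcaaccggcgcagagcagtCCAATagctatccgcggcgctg
Mcm6: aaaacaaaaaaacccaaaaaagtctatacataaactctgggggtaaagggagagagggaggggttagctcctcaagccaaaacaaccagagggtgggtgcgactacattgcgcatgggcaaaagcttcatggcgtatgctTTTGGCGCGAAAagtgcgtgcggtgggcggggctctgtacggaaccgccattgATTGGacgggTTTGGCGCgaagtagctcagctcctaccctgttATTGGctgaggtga
Uhrf1: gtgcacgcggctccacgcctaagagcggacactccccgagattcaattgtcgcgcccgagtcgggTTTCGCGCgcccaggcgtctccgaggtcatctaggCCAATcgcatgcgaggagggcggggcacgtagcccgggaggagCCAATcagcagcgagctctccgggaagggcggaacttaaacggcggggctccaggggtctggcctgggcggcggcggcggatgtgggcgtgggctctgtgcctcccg
Lig1: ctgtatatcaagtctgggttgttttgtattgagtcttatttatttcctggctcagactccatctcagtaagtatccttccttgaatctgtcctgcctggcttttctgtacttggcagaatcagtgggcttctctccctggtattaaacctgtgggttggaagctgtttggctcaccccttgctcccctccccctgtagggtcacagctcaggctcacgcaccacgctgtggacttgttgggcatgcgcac
Rrm2: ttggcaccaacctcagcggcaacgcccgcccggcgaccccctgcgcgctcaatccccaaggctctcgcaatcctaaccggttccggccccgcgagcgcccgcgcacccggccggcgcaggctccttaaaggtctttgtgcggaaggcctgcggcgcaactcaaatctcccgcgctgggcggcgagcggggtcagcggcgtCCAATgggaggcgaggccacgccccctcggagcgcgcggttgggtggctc
In Mcm5 the 2 E2F matches overlap and begin at -153 and -149, counted from the start at 1. Mcm6 holds 3, of which 2 overlap. The stretches of Lig1 and Rrm2 hold none of these E2F letters, although another listed start of Lig1, farther into the gene, has a match at 27 counted from that start. That absence says nothing about whether the factor binds there. A match describes letters in a window and is not a mapped binding site.

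Total counts per library were 13162449 to 18883711 in Het and 13113467 to 19327935 in WT, and 14757 genes were tested. Values are CPM, that is counts scaled to a common library size with TMM factors, and a change is the log2 fold change of Het over WT. A gene was said to rise or fall where its Benjamini-Hochberg adjusted p, from edgeR's quasi-likelihood test over all tested genes, was under 0.05. Tgfbr2 itself was at 41.3 ± 4.29 CPM (SD, n = 5 WT libraries) against 39.0 ± 8.22 CPM (SD, n = 6 Het libraries), with an adjusted p of 0.790, and counts per gene do not separate the alleles. The markers of the labelled cells were present, with the 6 smooth muscle markers summing to 30340 to 41339 CPM per library and the 7 endothelial markers to 328 to 528 CPM, beside fibroblast, fat and red cell markers. Of the 6 smooth muscle markers 1 fell, where 2.38% of all tested genes did, and no endothelial marker passed. Sex is not in the labels: Xist was at 58.4 to 78.6 CPM in the 5 WT libraries and in Het 1 and Het 2, and at most 0.735 CPM in Het 3 to 6. Ddx3y, on the Y chromosome, reached 86.4 to 110.5 CPM in those 4 Het libraries, with no count elsewhere. The groups thus differ in sex as well as in genotype, and the counts over the lists are also given with sex in the fit. In bulk RNA, a larger share of replicating cells and more of these transcripts in each cell cannot be told apart.

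Of the 42 members 8 rose, none fell and 34 did not pass. The 8 that rose were Mcm10, Mcm5, Uhrf1, Rrm2, Tk1, Mcm3, Ccne2 and Pole, and their changes ran from 1.39-fold to 2.85-fold. Over all tested genes 2.65% rose and 2.38% fell. At an unadjusted p under 0.05, 22 members rose and none fell, against 9.55% of all tested genes that rose at that level. The log2 fold change was positive in 37 of 42 members (49.2% of all tested genes), with a median of 0.43 over the members and of -0.0046 over all tested genes. Many members varied together from library to library and are not independent of one another, so these counts describe the list and are not a test of it. Every Het library lay above every WT library for 4 members, Mcm10, Mcm5, Uhrf1 and Mcm2, and the same held for 2.41% of all tested genes.

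**Figure D1:**
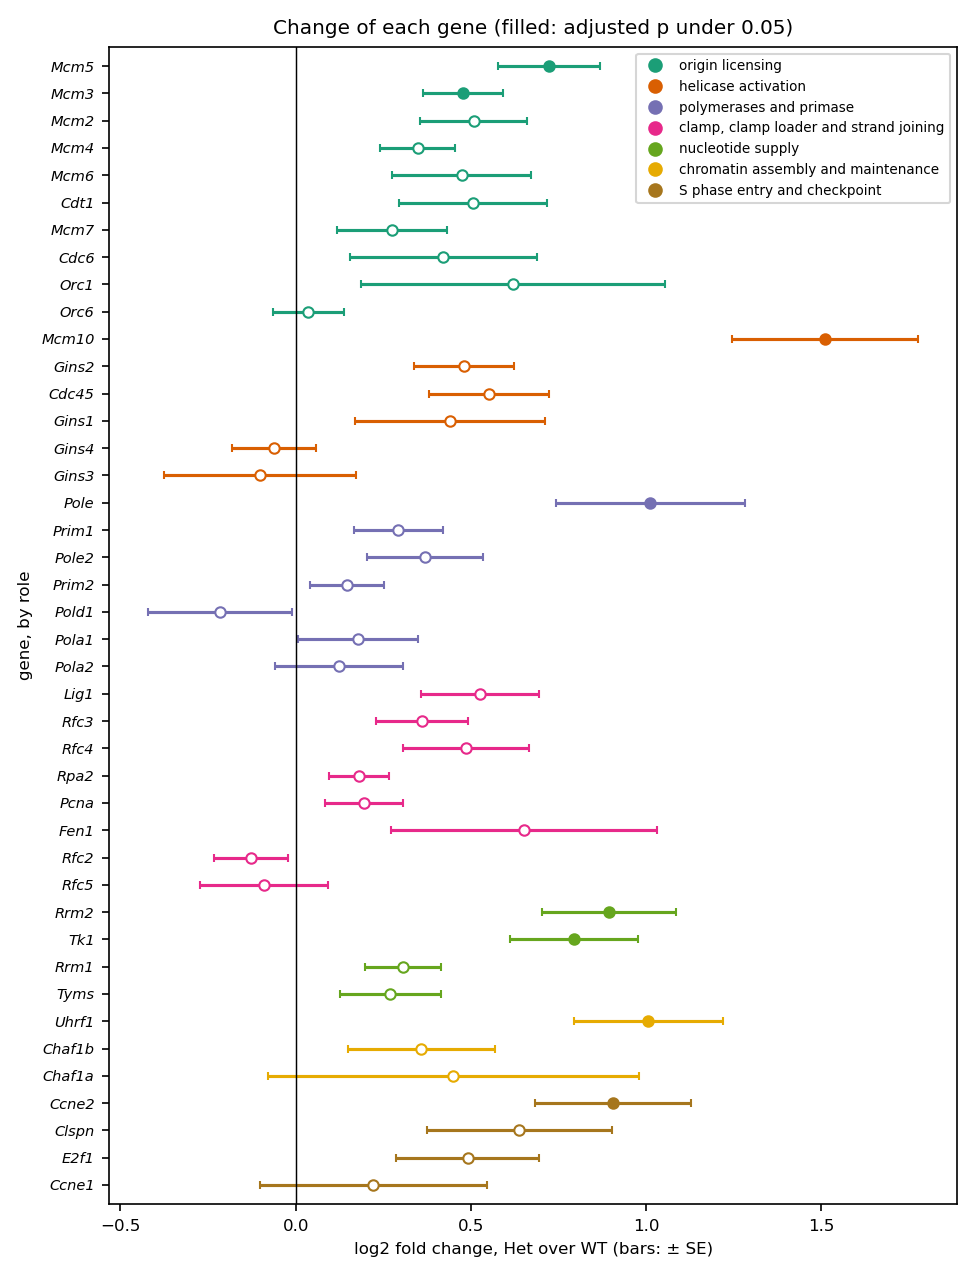
The log2 fold change of Het over WT (x axis) with its SE for each of the 42 genes (y axis), grouped and coloured by role, with filled points for the 8 that passed an adjusted p of 0.05. Mcm10 lies farthest to the right at 1.51, and the 5 genes left of zero did not pass.

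Among the licensing genes, which prepare origins in G1, Mcm5 and Mcm3 rose, and all 10 had a positive log2 fold change. Mcm5, a subunit of the helicase ring, stood at 36.1, 21.0, 25.3, 38.9 and 27.6 CPM in WT 1 to 5 and at 41.5 to 56.0 CPM in Het (median 49.4). The groups did not overlap. Its log2 fold change of 0.72 ± 0.15 (SE) had an adjusted p of 0.00883 in edgeR. Mcm3, its neighbour in the ring complex, was at 45.9, 37.1, 43.8, 51.8 and 39.7 CPM in WT and at 50.2 to 72.2 CPM in Het (median 59.1). Only Het 6, the lowest of its group, fell within the WT range, and the change was 0.48 ± 0.11 (adjusted p = 0.0242 by edgeR).

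The other 4 subunits of the ring did not pass, with log2 fold changes of 0.51 ± 0.15 for Mcm2 (adjusted p = 0.0695), 0.35 ± 0.11 for Mcm4 (0.0753), 0.47 ± 0.20 for Mcm6 (0.195) and 0.28 ± 0.16 for Mcm7 (0.362), all by edgeR. For Mcm2 all 6 Het libraries (13.1 to 19.1 CPM) still lay above the highest WT library (12.6 CPM). For Mcm4, 5 of 6 Het libraries did (48.2 to 70.6 CPM, against at most 50.4 CPM). The 6 subunits make up 1 complex in equal numbers, but per kilobase of transcript their levels in WT ran from 3.08 CPM for Mcm2 and 4.41 for Mcm6 to 13.1 for Mcm4 and 14.4 for Mcm3. The loading factors were less abundant. Cdt1 averaged 2.55 ± 0.547 CPM over the 5 WT and 3.62 ± 0.447 CPM over the 6 Het libraries (SD), Cdc6 4.99 ± 1.88 and 6.68 ± 2.13 CPM, and Orc1, the subunit that binds ATP in the origin recognition complex, 1.62 ± 0.890 and 2.47 ± 1.35 CPM. Their adjusted p values were 0.195, 0.424 and 0.479. Orc6, the smallest subunit of that complex, averaged 46.1 ± 5.50 CPM in WT against 47.2 ± 4.88 CPM (log2 fold change 0.04 ± 0.10, adjusted p = 0.899 by edgeR), and per kilobase it had the highest level of all members in WT (35.8 CPM per kilobase).

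Of the 6 genes that activate the helicase 1 rose. Mcm10, a scaffold that joins the activated helicase to the polymerases, stood at 2.85, 1.14, 2.05, 3.67 and 2.84 CPM in WT 1 to 5 and at 5.19 to 9.81 CPM in Het (median 6.98). It had the largest change of the 42, 1.51 ± 0.27 on the log2 scale (adjusted p = 0.00361 by edgeR), and the groups did not overlap. Its counts were low, 17 to 181 reads per library. Cdc45, the helicase cofactor, averaged 8.37 ± 2.06 CPM in WT against 12.3 ± 1.47 CPM (log2 fold change 0.55 ± 0.17, adjusted p = 0.0780). The 4 GINS subunits, which form 1 complex, differed in direction: Gins2 (0.48 ± 0.14) and Gins1 (0.44 ± 0.27) were positive, and Gins4 (-0.06 ± 0.12) and Gins3 (-0.10 ± 0.27) were near 0. None of these 4 passed (adjusted p = 0.0660, 0.404, 0.840 and 0.892), and whether they differ from each other was not tested. The value of Gins3 turned positive without WT 1 (0.11) or without WT 3 (0.0067). Most of the exon sequence of Gins2 (2758 of 4097 bases) overlaps Gse1 on the other strand, and the libraries do not mark strand. In all, 15 of the 42 members share exon bases with another gene, 14 of them with a gene on the other strand, so part of their reads may belong to that gene. Of the members that rose, this holds for Ccne2 (609 of 3495 bases, with Ints8), Tk1 (83 of 5198, with Afmid) and Pole (78 of 11160, with Gm15792).

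Of 7 polymerase and primase genes 1 rose. Pole, the catalytic subunit of the leading strand polymerase epsilon, was at 3.77, 2.88, 3.65, 6.83 and 3.29 CPM in WT 1 to 5 and at 5.40 to 12.5 CPM in Het (median 7.37). WT 4 lay above 2 of the Het libraries, and the change was 1.01 ± 0.27 (adjusted p = 0.0418 by edgeR). This call was lost without any 1 of 8 libraries (WT 1, 2, 3 or 5 or Het 1, 3, 4 or 5), and the adjusted p rose to 0.107 without WT 2. Its partner Pole2 (0.37 ± 0.17, adjusted p = 0.231) and the primase subunits Prim1 (0.29 ± 0.13, adjusted p = 0.216) and Prim2 (0.15 ± 0.11, adjusted p = 0.495) did not pass. Polymerase alpha, which starts each new strand, showed little difference in its subunits Pola1 (0.18 ± 0.17) and Pola2 (0.12 ± 0.18), with adjusted p of 0.636 and 0.777. Pola1 is the 1 member on the X chromosome. Pold1, the catalytic subunit of the lagging strand polymerase delta, had the lowest value of the 42, -0.22 ± 0.21 (adjusted p = 0.625), with 6.28 to 15.5 CPM in WT and 8.13 to 12.6 CPM in Het.

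None of the 8 genes for the clamp, its loader, strand joining and single-strand binding passed. Lig1, the ligase that seals the fragments of the lagging strand, came nearest: it was at 20.6, 22.4, 21.1, 38.6 and 31.0 CPM in WT 1 to 5 and at 32.5 to 50.4 CPM in Het (median 37.4). WT 4 lay within the Het range, and the change was 0.53 ± 0.17 (adjusted p = 0.0869 by edgeR, and 0.0133 without WT 4). Pcna, the sliding clamp and a common marker of proliferation, averaged 28.3 ± 3.69 CPM (SD, n = 5 WT libraries) against 32.4 ± 3.35 CPM (SD, n = 6 Het libraries), a log2 fold change of 0.19 ± 0.11 (adjusted p = 0.358). The clamp loader subunits were split, with Rfc3 (0.36 ± 0.13) and Rfc4 (0.49 ± 0.18) above 0 and Rfc2 (-0.13 ± 0.11) and Rfc5 (-0.09 ± 0.18) below it. Their adjusted p values were 0.136, 0.142, 0.566 and 0.846. Rpa2, of the single-strand binding complex, was at 0.18 ± 0.08 (adjusted p = 0.258). Fen1, the flap nuclease of lagging strand processing, had 5 to 26 reads per library and a change of 0.65 ± 0.38 (adjusted p = 0.374); 1909 bases of its exons overlap another gene model on the other strand.

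The genes of nucleotide supply gave 2 of the 8 calls. Rrm2, the small subunit of ribonucleotide reductase, which makes deoxynucleotides and limits the activity of the enzyme through the cell cycle, was at 23.2, 29.3, 22.8, 50.7 and 33.1 CPM in WT 1 to 5 and at 46.1 to 73.2 CPM in Het (median 58.9). All but 1 Het library lay above WT 4, the highest of WT, and the change was 0.89 ± 0.19 (adjusted p = 0.0133 by edgeR). The large subunit Rrm1 did not pass (0.31 ± 0.11, adjusted p = 0.121). Tk1, the thymidine kinase of dividing cells, was at 13.0, 18.5, 15.5, 27.1 and 12.8 CPM in WT and at 22.7 to 35.7 CPM in Het (median 30.9). Again WT 4 was the WT library that overlapped, with Het 1 below it, and the change was 0.79 ± 0.18 (adjusted p = 0.0196; 0.0559 without WT 3). Tyms, which makes thymidylate, was among the more abundant members with 71.2 ± 17.5 CPM in WT against 85.9 ± 13.0 CPM (0.27 ± 0.15, adjusted p = 0.331).

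Uhrf1, which reads half-methylated DNA behind the fork and brings in the maintenance methyltransferase, rose. It stood at 6.62, 4.15, 5.34, 10.9 and 5.16 CPM in WT 1 to 5 and at 11.0 to 15.3 CPM in Het (median 12.7). The groups did not overlap, although WT 4 came close to the lowest Het library, and the change was 1.01 ± 0.21 (adjusted p = 0.0119 by edgeR). The chromatin assembly factor that loads histones at the fork did not pass in either measured subunit, Chaf1b (0.36 ± 0.21, adjusted p = 0.378) or Chaf1a (0.45 ± 0.53, adjusted p = 0.708). Chaf1a had 1 to 39 reads per library, and 4648 of the 8854 bases of its exons overlap Ubxn6 on the other strand.

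Among the regulators of S phase entry, Ccne2, the E-type cyclin that activates CDK2, was at 12.6, 10.4, 13.6, 20.8 and 10.9 CPM in WT 1 to 5 and at 14.5 to 31.4 CPM in Het (median 29.5). Het 1 and Het 3 fell within the WT range and the other 4 lay above it; the change was 0.91 ± 0.22 (adjusted p = 0.0285 by edgeR). The call was lost without any 1 of 8 libraries (WT 1, 2, 3 or 5 or Het 2, 4, 5 or 6), and the adjusted p rose to 0.0789 without WT 2. The other E-type cyclin, Ccne1, averaged 3.37 ± 1.69 CPM in WT against 3.90 ± 1.02 CPM (0.22 ± 0.32, adjusted p = 0.775). E2f1, an activator of the replication genes, had a change of 0.49 ± 0.20 (adjusted p = 0.193), and Clspn, the adaptor of the replication checkpoint, of 0.64 ± 0.26 (adjusted p = 0.192).

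**Figure D2:**
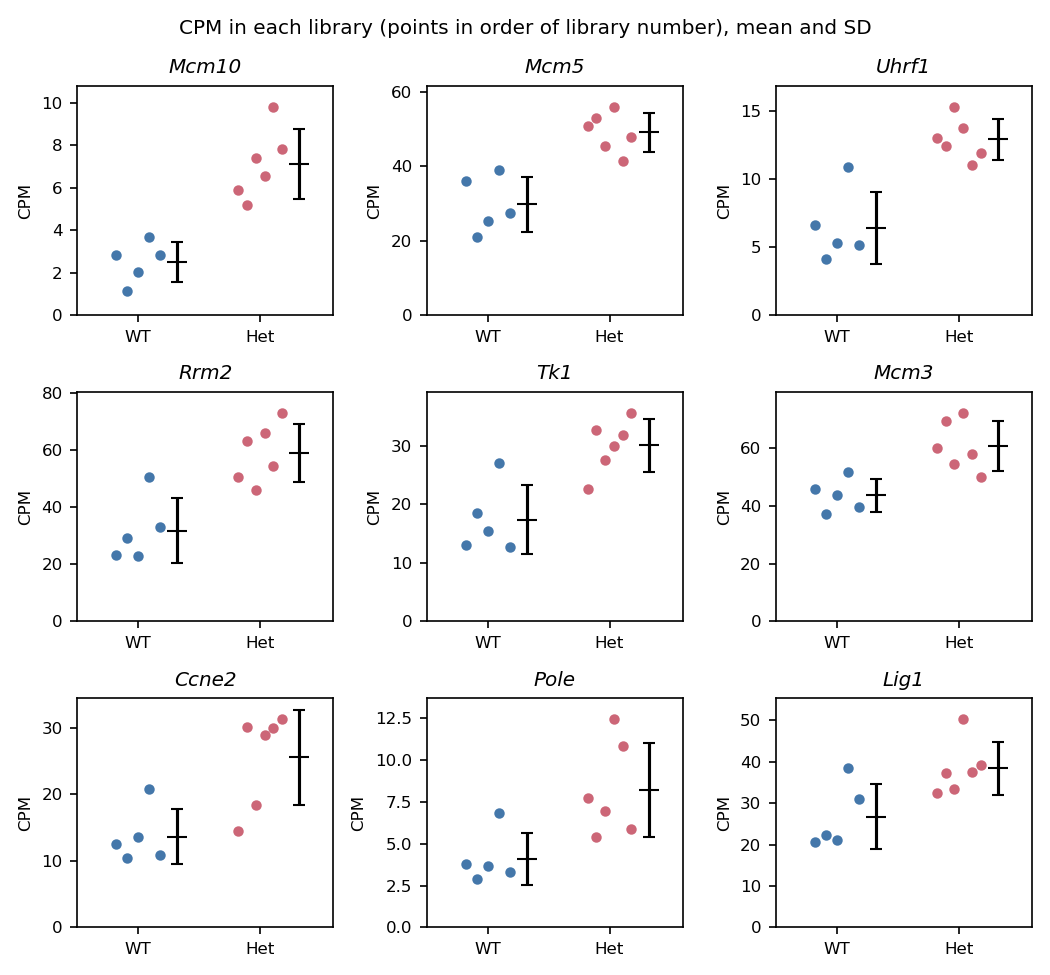
CPM (y axis, from 0) in each library for the 8 genes that rose and Lig1, with WT in blue, Het in red, and bars for the mean and SD. Mcm10, Mcm5 and Uhrf1 show no overlap between groups, and WT 4 is the highest of its group in all 9 panels.

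The libraries differed among themselves more than the group labels alone describe. The median member lay 0.33 to 0.53 above the WT mean on the log2 scale in the 6 Het libraries, and at 0.05, -0.12, -0.06, 0.36 and -0.09 in WT 1 to 5. WT 4 thus lay among the Het libraries for the list as a whole, with 36 of 42 members above the WT mean, although it counts in that mean. No Het library held the lowest value of any member. WT 2 held it for 15 members, WT 5 for 11, WT 3 for 8, WT 1 for 7 and WT 4 for 1. The highest value lay in Het 4 for 14 members and in Het 6 for 12. Summed over the 42 members, the level was 847 to 1102 CPM in WT and 1042 to 1286 CPM in Het.

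**Figure D3:**
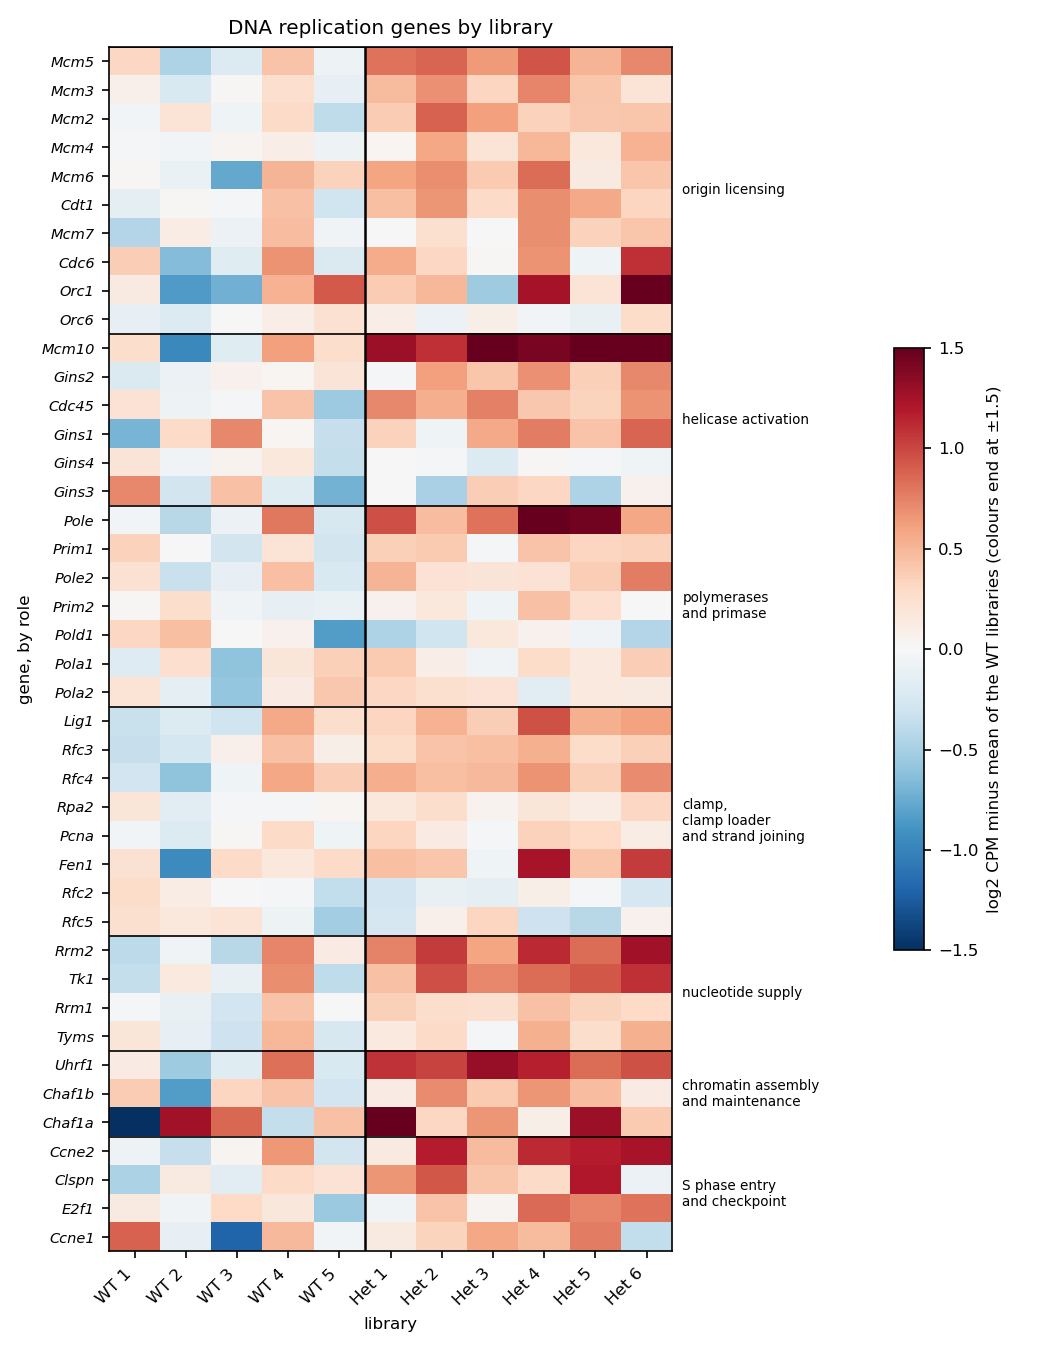
Log2 CPM of each of the 42 genes (rows, by role) in each library (columns) minus the gene's mean in WT, in red above it and in blue below. The WT 4 column is red for most genes, as the 6 Het columns are, and rows such as Orc6, Gins4 and Rpa2 have little colour in either group.

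Single libraries moved the count of 8. It was 5 without WT 2 (1.53% of all tested genes rose), 4 without WT 3 (1.8%), 5 without Het 4 (1.83%) and 14 without WT 4 (2.96%). Without both WT 1 and WT 2 it was 2 (1.57%). It was 13 by DESeq2 (4.43%), 13 at an adjusted p under 0.1 (4.37%) and 8 with the replicate number as a block (1.2%), where Lig1 passed (adjusted p = 0.0416) and Ccne2 did not (adjusted p = 0.0949). Mcm10, Mcm5, Uhrf1 and Rrm2 passed whichever single library was left out, and Tk1 in all but 1 case. Mcm3 did not pass without WT 2, WT 3, Het 2 or Het 4 (highest adjusted p, 0.0698, without WT 2). The median log2 fold change of the 42 stayed between 0.35 and 0.49 when 1 library was left out.

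With a sex score in the fit, built from Xist and 4 Y-linked genes, none of the 42 passed in edgeR (0.42% of all tested genes rose), and 12 rose at an unadjusted p under 0.05 (5.55% of all tested genes). The members' median was then 0.33, and 37 were positive. When only the 7 libraries with Xist were fitted, Het 1 and Het 2 against the 5 WT, none passed (0.122% of all genes rose), 11 rose at an unadjusted p under 0.05 (4.7%) and the median was 0.34. Mcm5 was at 0.81 ± 0.20 with the score (adjusted p = 0.0789) and Uhrf1 at 1.00 ± 0.29 (0.158), while Mcm10 was at 1.16 ± 0.33 (0.159) and Pole at 0.69 ± 0.35 (0.501). Against the WT mean, the median member lay 0.37 higher in Het 1 and Het 2 and 0.43 higher in Het 3 to 6. No WT library had Y-linked transcripts, so sex and genotype cannot be told apart for Het 3 to 6.

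Each deposited column name carries a 6 or a 7 whose meaning no label gives. In the fit of the libraries with Xist, Het 1 and Het 2 both carry 6, and every WT library except WT 3 carries 7. That fit therefore hardly separates this number from genotype. Fitted as a covariate, that number left 5 members that rose, Mcm10, Mcm5, Uhrf1, Rrm2 and Tk1, with 1.4% of all tested genes. Within number 7 (4 WT, 2 Het; added after seeing the data) none passed (0.11% of all tested genes rose) and 37 members were higher in Het, by a median of 0.34 between group means. The 2 Het libraries there are Het 3 and Het 6, both with Y-linked transcripts and the highest T cell marker sums. Sex and genotype therefore cannot be told apart within number 7. Within number 6 (1 WT, 4 Het) 34 were higher, by a median of 0.55, with no test.

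Markers of other cells moved with the groups or with single libraries. The 12 thymocyte and T cell markers summed to 2.81 to 12.9 CPM in WT and 2.49 to 41.0 CPM in Het. The 2 highest sums were in Het 3 and Het 6, and the source of these transcripts is not in the labels. Of the 12, 5 were tested and none passed, and Cd3e had no count in 8 libraries. With the T cell score in the fit, the count of members that rose stayed at 8 (2.49% of all tested genes) and the median of all 42 at 0.43. The 6 skeletal muscle markers summed to 16.3 to 37.8 CPM in WT and 6.88 to 14.5 CPM in Het, with most of the sum from Tnnt3. Only 2 of the 6 were tested, and 1 of them fell (2.38% of all tested genes fell). The 7 red cell markers summed to 672 to 1573 CPM in WT and 380 to 910 CPM in Het, and the 8 macrophage markers to 37.4 to 115 and 48.3 to 132 CPM. All 7 red cell markers had a negative log2 fold change, with a median of -0.75. Of the macrophage markers 7 were positive and 1 negative, where 49.2% of all tested genes were positive. None of either list passed the adjusted threshold. At an unadjusted p under 0.05 in edgeR, 5 red cell markers fell and 2 macrophage markers rose. Of all tested genes 9.55% rose at that level, and the share that fell at it was not counted. WT 4 held the highest red cell, macrophage, endothelial (482 CPM) and fibroblast (1727 CPM) sums of its group. It also held the lowest smooth muscle (33453 CPM) and skeletal muscle (16.3 CPM) sums of WT. The part of the skeletal muscle, red cell and macrophage markers in the result was not tested.

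Of 42 further genes of the replication pathway, 41 were tested and 1 rose, where 2.65% of all tested genes did. There were 30 positive values, the median was 0.21, and 12 of the 41 rose at an unadjusted p under 0.05 (9.55% of all tested genes). The count of 1 was 6 by DESeq2 (4.43% of all tested genes) and at an adjusted p under 0.1 (4.37%). With 1 library left out it was 0 without WT 2 (1.53%) and 2 without WT 1 (1.98%) or WT 4 (2.96%). It was 3 without WT 5 (2.56%) or Het 3 (2.36%) and 4 without Het 1 (2.32%). The one that rose was Asf1b, a histone chaperone of proliferating cells, with 4.25 ± 0.785 CPM (SD, n = 5 WT libraries) against 7.71 ± 1.66 CPM (SD, n = 6 Het libraries), a change of 0.86 ± 0.19 (adjusted p = 0.0169, and 0.0503 without WT 2). Gmnn, which encodes geminin, the inhibitor of CDT1, came close (0.59 ± 0.16, adjusted p = 0.0516), as did Mcmbp, an MCM-binding protein (0.31 ± 0.09, adjusted p = 0.0518), and Dbf4, which activates the kinase CDC7 at origins (1.12 ± 0.32, adjusted p = 0.0600). Whether these genes and the members differ was not tested.

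Upstream of these genes, 1 of 25 tested RB and E2F regulators rose (2.65% of all tested genes) and none fell (2.38%), with a median of -0.11. At an unadjusted p under 0.05, 5 of them rose, where 9.55% of all tested genes did, and 4 fell. The share of all tested genes that fell at that level was not counted, so the 4 have no background here. The regulator that passed was E2f7, a repressor of E2F targets that is itself made in S phase, with 1.10 ± 0.693 CPM in WT against 2.92 ± 0.570 CPM (1.41 ± 0.36, adjusted p = 0.0342). Its call was lost without any 1 of 8 libraries, with the highest adjusted p, 0.0845, without WT 2. Skp2, which marks CDK inhibitors for destruction, was at 0.47 ± 0.16 (adjusted p = 0.118), the G1 kinase Cdk6 at 0.39 ± 0.14 (0.141) and the D cyclin Ccnd2 at -0.43 ± 0.16 (0.152). Among 25 mitosis genes, which act after replication, 16 rose (2.65% of all tested genes), none fell (2.38%) and the median was 0.88. The count of 16 was 5 without WT 2 (1.53%), 23 without WT 4 (2.96%) and 0 with the sex score (0.42%). It was between 6 and 8 without WT 1, 3 or 5 or Het 2, 4, 5 or 6 (1.74% to 2.56%). Mki67 had a change of 1.48 ± 0.25 (adjusted p = 0.00339), Anln, which organises the cleavage furrow, of 0.81 ± 0.14 (0.00300), the spindle protein Nusap1 of 0.93 ± 0.18 (0.00602) and Ect2, an activator of cytokinesis, of 1.08 ± 0.24 (0.0142). With the sex score none of these 4 passed (adjusted p = 0.115, 0.0705, 0.115 and 0.204), nor did Asf1b (0.296) or E2f7 (0.261), and the 3 lists of other genes held 0 calls. By library, the median mitosis gene followed the median replication gene, at -0.27 to -0.12 in WT 1, 2, 3 and 5, 0.77 in WT 4 and 0.64 to 1.18 in Het.

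**Figure D4:**
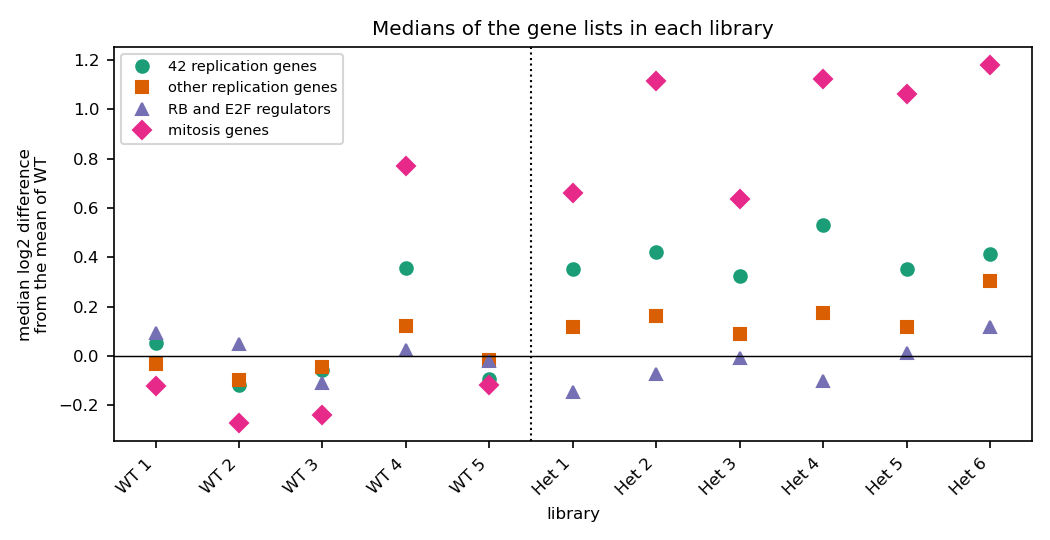
The median log2 difference from the WT mean (y axis) in each library (x axis) for the 42 replication genes, the other replication genes, the RB and E2F regulators and the mitosis genes. WT 4 lies at 0.36 for the 42 genes and 0.77 for the mitosis genes, among the Het libraries, and the regulators stay near zero in both groups.

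The tested genes outside the list whose log2 CPM over the 11 libraries was most like the mean of the members were Shcbp1 (Pearson r = 0.99), Nusap1 (0.98), Ect2 (0.98), Cdk1 (0.97) and Pimreg (0.97). These values include the difference between groups, and the libraries' differences in depth and makeup are common to all genes; they are a description. With each group centred on its own mean they were 0.95, 0.92, 0.93, 0.95 and 0.93. Within the list, the members most like the mean of the others were Rrm2 (0.93), Uhrf1 (0.93) and Mcm5 (0.92), and the least like it were Rfc5 (-0.26), Rfc2 (-0.21) and Pold1 (-0.21).

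Members with and without the E2F sequence both held calls. Of the 15 with a match 3 rose, Mcm3, Mcm5 and Uhrf1, and all 15 had a median change of 0.47 (log2). Of the 19 without one 3 rose, Mcm10, Rrm2 and Tk1, and the median of all 19 was 0.36. Pole and Ccne2 were not in the promoter table. Outside the list, 464 tested genes with a match had a median of 0.0077 and 3.02% of them rose. The 10052 tested genes with no match, members included, had a median of -0.0088, and 2.77% of them rose. The difference between members with and without a match was not tested.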

How the data were processed

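RNA from the aortic arches was isolated with TriPure and PureLink reagents. Nextera XT libraries, which do not mark strand, were pooled and read on a NextSeq 500 (75 nt, single), per the labels' protocols. STAR (2.5.2a), GRCm38, limma, edgeR and DESeq2 appear in the submitters' processing notes without their roles, and which program counted reads is not given in the sources used here. Raw counts by the authors cover 48733 rows per the file headers, 24 of them spike-in or transgene rows (4 to 11 counts per library) that were not used. A filtered table holds 19629 of these rows with identical counts. The authors' deposited signal, named as TMM-normalized CPM, sums to 966683 to 1026471 per library; it gave the gene names and an alternative test.

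Genes were kept by filterByExpr (minimum count 10), scaled by TMM and tested in all 11 libraries, Het against WT, by edgeR 4.0.16 (R 4.3.3), robust quasi-likelihood, no covariates; limma 3.58.1 and DESeq2 1.42.0 served as alternatives. The SE was taken as the size of the change over the root of its F value. The test was checked on simulated counts. Log2 CPM by library uses a prior count of 2. Levels per kilobase use the longest principal transcript of GENCODE M21 (GRCm38); exon overlaps were taken between its gene models. The members, the lists and the alternatives were chosen with earlier results of these data known. Named were the 8 members with the smallest p, the smallest p of each of 7 role groups, and the 4 smallest p of each of 3 pathway lists. Of 12 marker lists, those for B cells, cartilage, heart muscle and nerve cells summed to at most 35.8 CPM in any library, those for fat to 320 to 2718 CPM and those for fibroblasts to 1110 to 1954 CPM. Over these 6 lists 1 of 6 tested fibroblast markers rose, and 1 fibroblast and 1 of 5 tested cartilage markers fell. So did 1 of 6 tested smooth muscle and 1 of 2 tested skeletal muscle markers. Over all tested genes 2.65% rose and 2.38% fell.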

Additional observations from a re-analysis of the deposited data

Results flagged for a closer look

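In 86 groups of libraries (42 genes and the median of the list, each in WT and in Het), 3 held a library far from the rest of its group by Dixon's test; chance gives about 1 in 20. Pole was at 6.83 CPM in WT 4, against 2.88 to 3.77 CPM in the other WT libraries. Fen1 was at 0.335 CPM in WT 2, against 0.882 to 0.975 CPM, on 5 reads. Prim1 was at 32.3 CPM in Het 3, against 40.7 to 43.8 CPM in the other Het libraries.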

How the results depend on the processing

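The count of members that rose was 8 with RLE or upper quartile scaling, limma voom, limma trend on the deposited CPM with a pseudocount of 1 or 0.5, no filter, a minimum mean of 1 CPM, the T cell score and the replicate block. In the fit with the replicate block, in which Het 6 has no partner, 8 members rose, with Lig1 in place of Ccne2, and the median of all 42 was 0.41; the same-numbered libraries correlated at -0.21 to 0.059, no WT library correlated best with its own number, and over all genes 177 rose and 152 fell, against 391 and 351 without the block. The count was 13 with DESeq2, 13 at an adjusted p of 0.1, 2 without both WT 1 and WT 2, 5 with the number of the column name as covariate and 0 with the sex score, in the Xist-positive libraries and within number 7, the last chosen after seeing the data; for the subsets the fits had fewer libraries. Leaving out 1 library gave 4 to 14, and the members that fell stayed at 0 throughout. The median log2 fold change lay between 0.30 and 0.49 in all 27 alternatives. The 8 members that rose kept their direction in all 216 of their alternative values. They were chosen by the main fit and the alternatives reuse its libraries, so this was likely in advance and is no separate support. The alternative at an adjusted p of 0.1 repeats the main values. Values that changed sign belong to genes that did not pass: without WT 1 and WT 2, Orc6 was at -0.068, Gins3 at 0.058, Pold1 at 0.046, Rfc2 at 0.0028 and Rfc5 at 0.033. Within number 7, Gins3 was at 0.24, Prim2 at -0.053, Rfc5 at 0.23, Ccne1 at -0.19 and Tgfbr2 at 0.060. Orc6 was at -0.010 with the replicate block and, with 1 library left out, between -0.013 (without WT 2 or Het 6) and 0.096. Gins3 ran from -0.25 to 0.11 (without WT 1; 0.0067 without WT 3), and Pola2 was at -0.0030 without WT 3. The cause was not tested. Fen1, Chaf1a, Orc1, Gins1 and Cdt1, each with at most 94 reads in any library, had SE of 0.21 to 0.53.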
